A study of Mus musculus with 16 samples.

Results

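MaLR repeats (mammalian apparent LTR retrotransposons) are the LTR elements that the repeat annotation files under the family ERVL-MaLR. They were chosen here by that family name alone, which gave 103 elements of the 1160 repeat elements listed in any of 3 repeat tables. By name, 20 of them were MT elements, 29 ORR1 elements and 54 MLT elements, and 52 were long terminal repeats (LTRs) while 51 were internal parts, written with the ending -INT. The MST name group had 0 rows in the family and was not analysed here. MT2 repeats share the first letters of MT but belong to the family ERVL, so they were not members. Polyadenylated RNA of mouse 2-cell embryos was measured with Smart-seq2, a full-length RNA sequencing method that keeps no strand, in 16 libraries. There were 4 libraries of non-injected embryos. Another 6 were of embryos that had received double-stranded RNA for LacZ, a gene of bacteria, at the zygote stage (LacZ control). The last 6 were of embryos that had received double-stranded RNA for Suv39h2 (knockdown). All came from hybrid crosses of a DBA father with a mother that was the F1 of C57BL/6J and CBA/H, and all were incubated in KSOM, a culture medium for embryos. The design text gives pools of 5 embryos per library, whereas the extraction label speaks of single embryos and the treatment label of Suv39h1 messenger RNA, which the other labels give to none of these groups.

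An LTR element inserts as a proviral unit in which an internal part lies between a pair of LTRs, and the LTR carries the promoter. Recombination between the LTRs often leaves a solitary LTR. MaLR elements do not encode proteins of their own and were copied with enzymes made by related ERVL elements. MT and ORR1 are rodent groups, and within each the letter A marks young members, whereas MLT elements are old and shared among mammals. MT LTRs, above all MTA, act as promoters in growing oocytes and give many chimeric transcripts that are stored in the egg. ORR1A LTRs, like the MT2 LTRs of the ERVL retrovirus MERVL, have promoter activity around the activation of the embryonic genome at the 2-cell stage. Suv39h2 encodes a methyltransferase of lysine 9 of histone H3, a mark of silent chromatin that also lies on many LTR elements.

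The values are those of the authors' deposited tables, which hold a mean normalized count over libraries, a shrunken log2 fold change with its standard error, a p-value and an adjusted p from DESeq2 for each element. Each row sums all genomic copies of an element, so no position can be given, and reads from a gene whose exon holds a MaLR copy cannot be told apart from reads of a free element. Values of single libraries and their depth are unknown, so neither the spread between libraries nor an overlap of groups can be shown. The labels do not say whether the libraries came from separate batches of embryos, so the p-values measure the spread between these libraries, which may be technical. Fewer cells and less RNA per cell also cannot be told apart in pooled embryos. The targeted gene was lower: Suv39h2 (ENSMUSG00000026646.16, GRCm38 chromosome 2, 3455815 to 3475031) stood at -1.95 ± 0.28 (standard error) against LacZ control and at -1.79 ± 0.29 against non-injected per the authors' deposited table (at adjusted p = 4.72e-08 and 2.21e-06). Its exons overlap Dclre1c and Gm13184 on the other strand.

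The headers of the repeat tables do not say which group is over which, and every direction below rests on reading a positive value as higher in the group that the table names second. Of genes in GENCODE vM21 whose transcripts repeat themselves at 230 to 240 bases, the period of the major satellite, 12 had a p-value. All 12 were below 0 in knockdown versus LacZ control and all 12 in knockdown versus non-injected, while 11 were above 0 and 1 below in LacZ control versus non-injected. The satellite repeat GSAT_MM carried the same signs in the authors' deposited table under that reading, at -1.14, -0.92 and 0.37. Of the 12 genes, DESeq2 called 1, lower in knockdown versus LacZ control, and 0 in the other comparisons. They were chosen for a shared period and can share reads, so they are not 12 separate checks. The MERVL elements that mark the 2-cell stage were abundant: MT2_MM had a mean normalized count of 188800 and MERVL-INT of 44078 in the authors' deposited table of knockdown and LacZ control. No other stage was measured, so this abundance does not test the stage label.

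MaLR sequences made up much of the repeat signal in these embryos. Summed over elements, they held 47.1% of the mean normalized count in the table of knockdown and LacZ control, 47.8% in that of knockdown and non-injected and 42.6% in that of LacZ control and non-injected. One element, MTA_MM, the LTR of the youngest MT group, held 38.1%, 38.4% and 32.8% in the same order and ranked first among all repeats in each table. In the first of these tables the 20 MT elements together held 89.3% of the MaLR count, the 29 ORR1 elements 9.75% and the 54 MLT elements 0.975%. These are shares of counts, neither per copy nor per length. LTR rows held 92.9% of the MaLR count and internal parts 7.11%. Beyond MTA_MM, with a mean normalized count of 1404703 in the authors' deposited table of knockdown and LacZ control, the largest rows were MTA_MM-INT at 63001, ORR1A0 at 56332, ORR1A1 at 28609 and MT-INT at 24630. In the MLT group the largest were MLT1A1 at 4237 and MLT1B at 2211 in the authors' deposited table.

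Between knockdown and LacZ control, both injected with double-stranded RNA, the youngest ORR1 elements all lay below 0 and the internal part ORR1E-INT rose, while the MT elements were spread around 0. The comparison asks what follows the loss of Suv39h2 messenger RNA beyond the injection. ORR1E-INT had a mean normalized count of 402.9 and rose by 0.57 ± 0.16 in the authors' deposited table, a 1.49-fold difference (at adjusted p = 0.0412). It was the only MaLR element called, meaning an adjusted p under 0.05, among the 89 with an adjusted p, against 0.350% of all repeats with one. Its call depends on the features adjusted over: with Benjamini-Hochberg adjustment over the repeat table alone its adjusted p was 0.101, over repeats and genes together 0.0634, and over repeats with a mean count of at least 10 0.0759.

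The 10 ORR1A elements, 5 LTRs and their 5 internal parts, ranged from -0.63 to -0.33 in log2 fold change, with a median of -0.44. None was called. At an unadjusted p under 0.05, 7 of the 10 were lower and 0 higher, while 3.91% of all repeats with a p-value were lower and 2.78% higher. That background is not matched for count: the median mean normalized count was 67.6 over all repeats and 4715 over the ORR1A elements. ORR1A0, the largest of them in count, stood at -0.46 ± 0.17 per the authors' deposited table (p = 0.00813, adjusted p = 0.178). Its internal part ORR1A0-INT stood at -0.58 ± 0.23 there (p = 0.0139, adjusted p = 0.223, the authors' deposited table). ORR1A1 and ORR1A1-INT had -0.38 ± 0.16 and -0.62 ± 0.22 in the authors' deposited table (p = 0.0160 and 0.00502). For ORR1A2 and ORR1A2-INT the authors' deposited table gave -0.43 ± 0.19 and -0.63 ± 0.22 (p = 0.0246 and 0.00502). ORR1A3-INT stood at -0.45 ± 0.19 (p = 0.0174), ORR1A3 at -0.33 ± 0.20 (p = 0.0998) per the authors' deposited table. ORR1A4 and ORR1A4-INT were at -0.35 ± 0.21 and -0.34 ± 0.20 in the authors' deposited table (p = 0.0945 and 0.0825). In 4 of the 5 pairs the internal part lay below its LTR. Their sequences are closely related, so reads can be shared among them and the 10 rows are not independent measurements.

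The other 19 ORR1 elements showed no such common side. Their median was -0.04, with 8 above and 11 below 0, and the lettered subgroups B, C, D, E, F and G had medians of 0.01, -0.08, -0.22, 0.22, 0.13 and -0.07. All 5 ORR1D elements were below 0, between -0.29 and -0.01. ORR1C1 stood at -0.31 ± 0.17 while its internal part ORR1C1-INT stood at 0.42 ± 0.30 per the authors' deposited table (at adjusted p = 0.398 and 0.552). The selection of the A subgroup for this description was made after its values had been seen, and it was not tested against the other ORR1 elements.

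**Figure D1:**
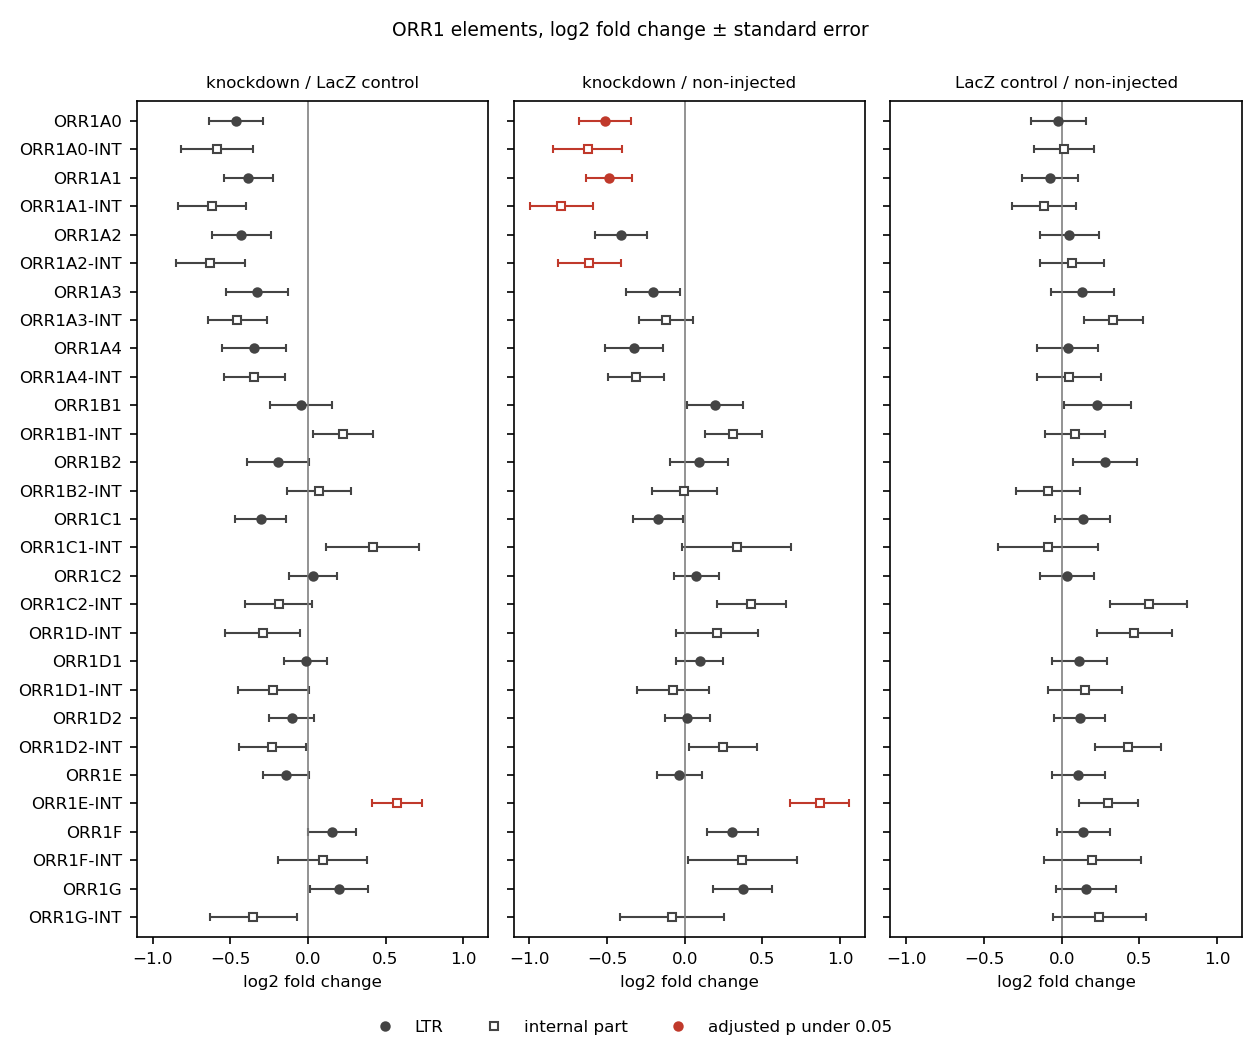
Log2 fold change (x axis) of each of the 29 ORR1 elements (y axis) in the 3 comparisons; filled circles are LTRs, open squares internal parts, bars standard errors, and red marks an adjusted p under 0.05. The 10 ORR1A elements lie below 0 in both knockdown panels and between -0.11 and 0.33 in LacZ control over non-injected, and ORR1E-INT is the highest element in both knockdown panels.

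MT elements lay on both sides of 0 between knockdown and LacZ control. Their median was -0.0055, with 9 above and 11 below 0 and 0 of 20 called by DESeq2 (at an unadjusted p under 0.05, 0 higher and 1 lower). MTA_MM stood at 0.22 ± 0.23 and MTA_MM-INT at 0.13 ± 0.23 per the authors' deposited table (at adjusted p = 0.701 and 0.846). The exception in size was MTB_MM-INT, an internal part of the young MTB group with a mean normalized count of 166.6. It stood at -0.86 ± 0.26 per the authors' deposited table (p = 0.00211, adjusted p = 0.100), the lowest value in the family in this comparison. Its LTR, MTB_MM, stood at -0.12 ± 0.21 per the authors' deposited table (at adjusted p = 0.859).

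MLT elements centred slightly above 0, with a median of 0.05 and 33 of 53 above 0. DESeq2 called 0 of the 40 with an adjusted p. At an unadjusted p under 0.05, 3 were higher and 0 lower. These were MLT1H at 0.49 ± 0.22 and MLT1I at 0.44 ± 0.20 in the authors' deposited table (p = 0.0244 and 0.0301), and MLT1G1-INT at 0.61 ± 0.28 (p = 0.0115). The last has a mean normalized count of 3.95 and no adjusted p in the authors' deposited table. Of the most abundant MLT elements, MLT1A1 stood at -0.42 ± 0.27 and MLT1B at 0.11 ± 0.15 per the authors' deposited table (at adjusted p = 0.505 and 0.790). Over the whole MaLR family the median was -0.0045 in 102 elements with a p-value, beside -0.017 over all 1151 repeats with one. Above 0 lay 50 of these 102 elements and 534 of these 1151 repeats.

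Between knockdown and non-injected embryos 5 of the 10 ORR1A elements fell, both MTA elements and 1 of 4 MTB elements rose, and ORR1E-INT had the highest value of the family. The other 5 ORR1A elements lay below 0 without a call, and of the other 3 MTB elements 2 lay above 0 and MTB_MM-INT below it. The groups differ both in Suv39h2 messenger RNA and in injection. DESeq2 called 10 of the 89 MaLR elements with an adjusted p, 5 higher and 5 lower, which is 11.2% beside 6.62% of all repeats. By direction the background over all repeats was 3.60% higher and 3.02% lower. The median of the family was 0.13, beside 0.076 over all repeats. The count depends on the features adjusted over. It was 2 over the repeat table alone (ORR1E-INT and ORR1A1-INT), 4 over repeats with a mean count of at least 10 (these and ORR1A1 and MTA_MM-INT), 7 over repeats and genes together and 8 over repeats with a mean count of at least 100, all of them among the 10.

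Every call on the lower side was an ORR1A element. ORR1A1-INT fell by 0.80 ± 0.20 in the authors' deposited table, a 1.74-fold difference (at adjusted p = 0.00191). Its LTR ORR1A1 fell by 0.49 ± 0.15 in the authors' deposited table (at adjusted p = 0.0115). ORR1A0 fell by 0.52 ± 0.17 and ORR1A0-INT by 0.63 ± 0.22 in the authors' deposited table (at adjusted p = 0.0180 and 0.0365). ORR1A2-INT fell by 0.61 ± 0.20 in the authors' deposited table (at adjusted p = 0.0204). The remaining 5 were below 0 without a call. ORR1A2 stood at -0.41 ± 0.17 per the authors' deposited table (at adjusted p = 0.0700), ORR1A4 at -0.33 ± 0.19 and ORR1A4-INT at -0.32 ± 0.18 (at adjusted p = 0.229 and 0.231). ORR1A3 and ORR1A3-INT were nearest to 0 in the authors' deposited table, at -0.20 ± 0.17 and -0.12 ± 0.17 (at adjusted p = 0.449 and 0.679). The median of the 10 was -0.45, while the other 19 ORR1 elements had a median of 0.19, with 14 above 0.

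ORR1E-INT rose by 0.87 ± 0.19 in the authors' deposited table of knockdown and non-injected, a 1.83-fold difference (at adjusted p = 0.000218). Its mean normalized count there was 387. Its call held under each of the 4 other adjustments, with adjusted p of 0.000677 to 0.0024. The LTR of the same name, ORR1E, had a count of 4284 and stood at -0.04 ± 0.14 per the authors' deposited table (at adjusted p = 0.893).

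The calls on the higher side other than ORR1E-INT were 3 MT elements and MLT1D. MTA_MM rose by 0.63 ± 0.20 and MTA_MM-INT by 0.64 ± 0.19 in the authors' deposited table, which is 1.55-fold and 1.56-fold (at adjusted p = 0.0147 and 0.00968). MTB, an older relative of MTA, rose by 0.45 ± 0.16 in the authors' deposited table (at adjusted p = 0.0284), a call that none of the 4 other adjustments kept (0.0574 to 0.119). ORR1A0-INT also lost its call under all 4 (0.0694 to 0.141). Of all repeats, 699 of 1143 lay above 0 in this comparison. All 9 MT LTRs were above 0, from 0.02 (MTEA) to 0.63 (MTA_MM), with a median of 0.34. Those of MTB_MM and MTE2A stood at 0.36 ± 0.15 and 0.34 ± 0.14 per the authors' deposited table, without a call (at adjusted p = 0.0706 and 0.0640). By letter, the median log2 fold change over LTRs and internal parts was 0.63 for MTA, 0.34 for MTB, 0.16 for MTC, 0.15 for MTD and 0.05 for MTE, over 2, 4, 2, 2 and 9 elements. The other comparisons did not show this order. In knockdown versus LacZ control the medians from MTA to MTE were 0.18, -0.18, 0.16, -0.06 and -0.0031. In LacZ control versus non-injected they were 0.39, 0.45, -0.05, 0.19 and 0.17. MTB_MM-INT was again the lowest MT element in knockdown versus non-injected, at -0.39 ± 0.27 in the authors' deposited table (at adjusted p = 0.360).

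**Figure D2:**
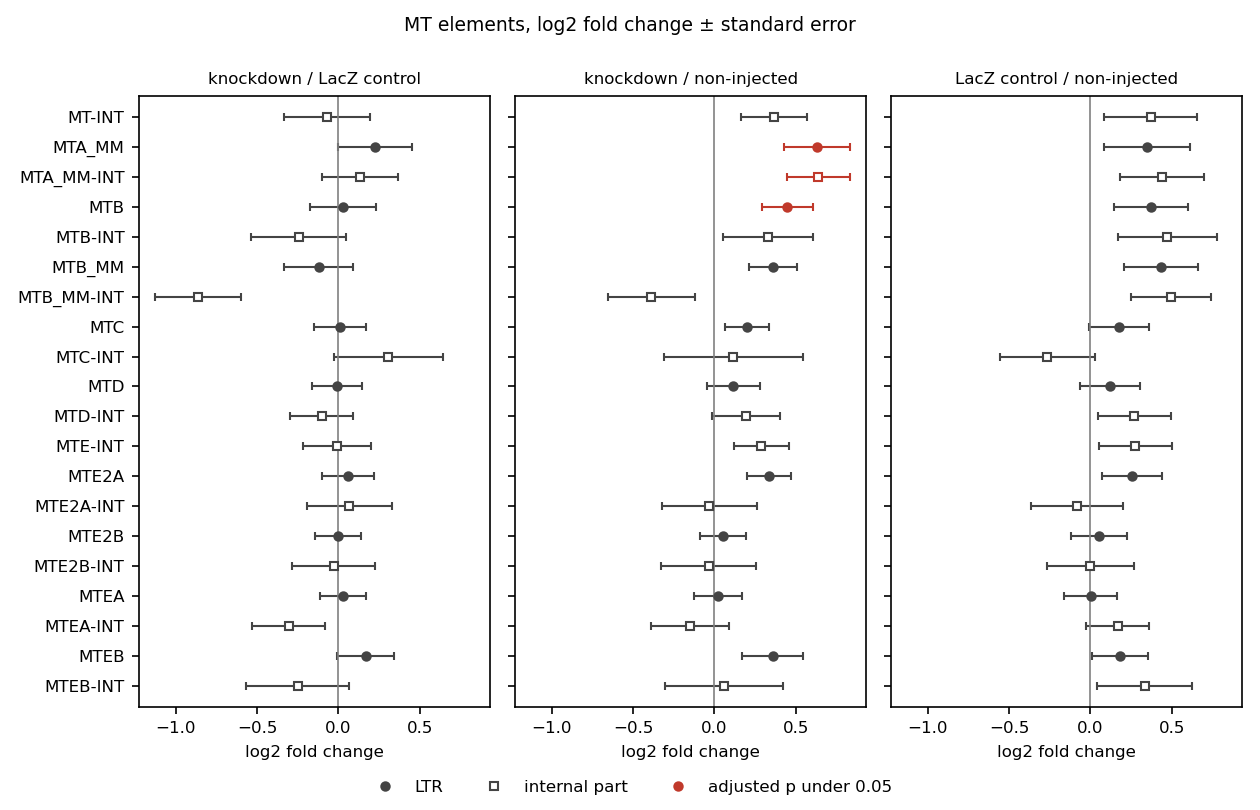
Log2 fold change (x axis) of each of the 20 MT elements (y axis) in the 3 comparisons; filled circles are LTRs, open squares internal parts, bars standard errors, and red marks an adjusted p under 0.05. MTA_MM, MTA_MM-INT and MTB are called in knockdown over non-injected, where all 9 LTRs lie above 0, and MTB_MM-INT stands alone at -0.86 in knockdown over LacZ control.

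Among the old MLT elements 39 of 52 lay above 0 in knockdown versus non-injected, beside 699 of 1143 over all repeats. Their median was 0.21. MLT1D, an LTR with a mean normalized count of 1576, rose by 0.51 ± 0.17 in the authors' deposited table (at adjusted p = 0.0176). It lost its call over the repeat table alone (0.0825) and over repeats with a mean count of at least 10 (0.0619). MLT1A stood at 0.57 ± 0.24 and MLT-INT at 0.53 ± 0.24 per the authors' deposited table, neither of them called (at adjusted p = 0.0751 and 0.106). The most abundant, MLT1A1 and MLT1B, stood at -0.05 ± 0.29 and 0.24 ± 0.15 per the authors' deposited table (at adjusted p = 0.931 and 0.291).

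In LacZ control versus non-injected embryos, which sets injection of double-stranded RNA against none, the MT elements lay mostly above 0 and the ORR1A elements near it, with no call. DESeq2 called 0 of 93 MaLR elements and 0 of 943 repeats with an adjusted p, a share of 0%. At an unadjusted p under 0.05, 1 MaLR element was higher and 0 lower, against 2.55% of all repeats higher and 0.790% lower. That element was ORR1C2-INT, at 0.56 ± 0.25 in the authors' deposited table (p = 0.0246, adjusted p = 0.394). The family still leaned above 0, with 77 of 101 elements above it, beside 762 of 1139 over all repeats. Its median was 0.13, beside 0.075 over all repeats. MT elements had a median of 0.26, with 17 of 20 above 0, and the 6 lettered MTA and MTB elements all lay between 0.35 and 0.49. MTA_MM stood at 0.35 ± 0.26 and MTA_MM-INT at 0.44 ± 0.26 per the authors' deposited table (at adjusted p = 0.719 and 0.572). MTB_MM-INT, the lowest MT element in both knockdown comparisons, was the highest here, at 0.49 ± 0.25 in the authors' deposited table (at adjusted p = 0.515). Its values here and in knockdown versus LacZ control are not independent, because the LacZ control libraries enter them on opposite sides. ORR1A elements lay close to 0, with a median of 0.04, 7 above and 3 below. ORR1A0 and ORR1A1 stood at -0.02 ± 0.18 and -0.08 ± 0.18 per the authors' deposited table (at adjusted p = 0.984 and 0.938). ORR1E-INT stood at 0.30 ± 0.19 per the authors' deposited table (at adjusted p = 0.625). MLT elements had a median of 0.11.

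**Figure D3:**
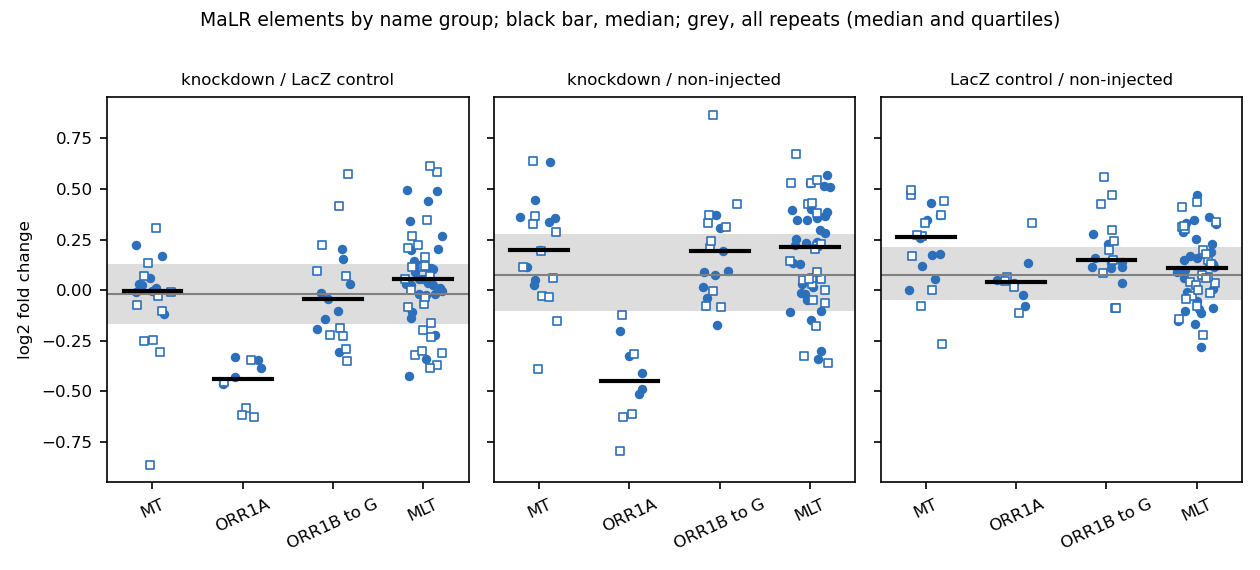
Log2 fold change (y axis) of each MaLR element with a p-value by name group (x axis) in the 3 comparisons; filled circles are LTRs, open squares internal parts, black bars group medians, and the grey band and line give the quartiles and median of all repeats. ORR1A lies at medians of -0.44 and -0.45 in the knockdown panels and 0.04 in the third, and MT at -0.0055, 0.20 and 0.26.

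The 3 comparisons share their libraries and are not independent of each other: both knockdown comparisons use the same knockdown libraries. The LacZ control libraries are the reference in knockdown versus LacZ control and the group compared in LacZ control versus non-injected. A high or low value in them moves these comparisons in opposite directions. Although the repeat tables were normalized separately, the log2 fold change of knockdown over non-injected differed from the sum of the other two by a median of 0.022 (absolute) over the 100 MaLR elements measured in all 3 tables, and by at most 0.15. For MTA_MM the step from non-injected to LacZ control was 0.35 ± 0.26 and that from LacZ control to knockdown 0.22 ± 0.23. For MTB_MM these steps were 0.43 ± 0.23 and -0.12 ± 0.21. For ORR1A0 they were -0.02 ± 0.18 and -0.46 ± 0.17. Whether these steps differ from each other was not tested.

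An LTR and the internal part of the same element often differed in size. In knockdown versus LacZ control 32 pairs had an adjusted p for both rows, and the internal part was lower than its LTR in 24 and higher in 8. The signs were the same in 17 pairs and opposite in 15. The 5 ORR1A pairs were all below 0 on both rows, and the internal part was lower in 4 of them, by 0.12 to 0.23, and within 0.0035 of the LTR in ORR1A4. The widest gaps were those of MTB_MM, whose internal part was 0.74 lower, and of ORR1C1 and ORR1E, whose internal parts were 0.72 higher on the log2 scale. The internal parts of ORR1G (-0.35 against 0.20 for the LTR), ORR1C2 (-0.19 against 0.03), ORR1D1 (-0.22 against -0.01) and ORR1D2 (-0.23 against -0.10) were lower in the authors' deposited table. Those of ORR1B1 (0.22 against -0.04) and ORR1B2 (0.07 against -0.19) were higher there, and ORR1F (0.09 against 0.16) was close in the authors' deposited table.

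Among the 9 MT pairs the internal part was lower in 7. The authors' deposited table gave the internal part against the LTR as -0.25 against 0.03 for MTB, -0.31 against 0.03 for MTEA and -0.25 against 0.17 for MTEB. MTD (-0.10 against -0.01), MTE2B (-0.03 against -0.0031) and MTE2A (0.07 against 0.06) were close in the authors' deposited table, and MTC-INT was higher (0.31 against 0.01). Among the 9 MLT pairs the internal part was lower in 8, by up to 0.59 in MLT1F. Examples in the authors' deposited table were MLT1H (-0.03 against 0.49), MLT1B (-0.37 against 0.11), MLT1D (-0.23 against 0.20), MLT1F (-0.39 against 0.20) and MLT1J (-0.30 against 0.06). MLT1A (-0.08 against 0.06), MLT1I (0.21 against 0.44) and MLT1J1 (0.12 against 0.27) were lower by less in the authors' deposited table, and MLT1A1 was the reverse (-0.20 against -0.42). Standard errors of these internal parts reach 0.34, and no difference within a pair was tested. In a further 13 MLT pairs the internal part had no adjusted p because its count was low. In knockdown versus non-injected the internal part was lower in 20 of 32 pairs, and among ORR1 pairs in 6 of 14. LacZ control versus non-injected went the other way, with the internal part lower in 13 and higher in 23 of 36 pairs. Among ORR1 pairs it was lower in 4 and higher in 10 there. The LacZ control libraries enter LacZ control versus non-injected and knockdown versus LacZ control on opposite sides. The opposite leans are therefore not independent observations.

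**Figure D4:**
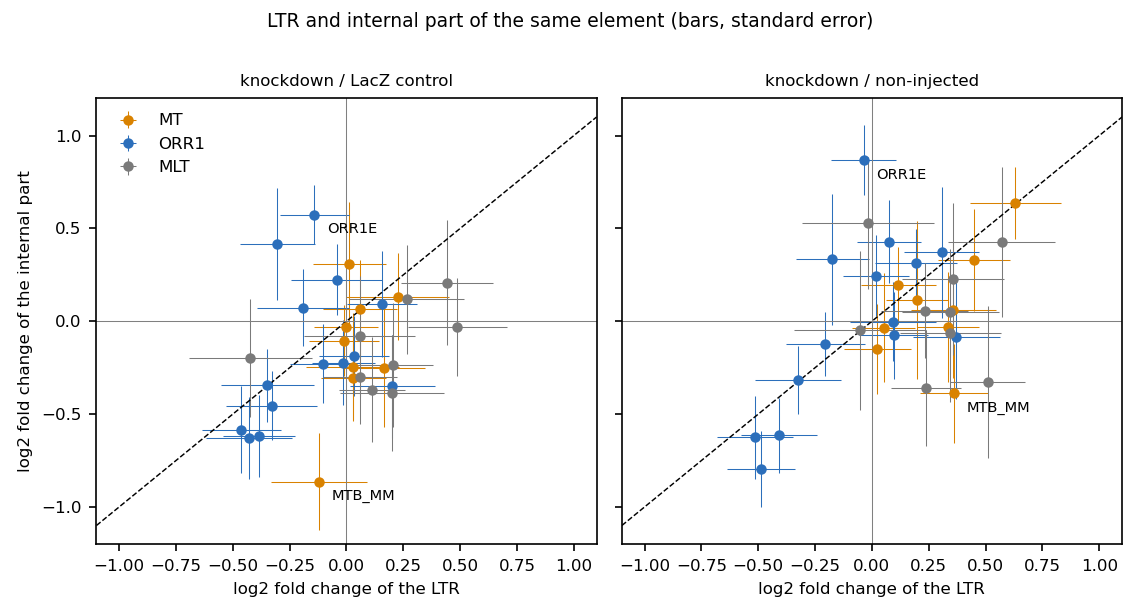
Log2 fold change of the internal part (y axis) against that of the LTR of the same name (x axis) for the 32 pairs with an adjusted p on both rows, in knockdown over LacZ control (left) and over non-injected (right); bars are standard errors and the dashed line marks equal values. The ORR1A pairs form the blue points at the lower left, ORR1E lies far above the line at 0.57 and 0.87, and MTB_MM below it at -0.86 and -0.39.

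The ERVL family, to which MERVL belongs, gives the nearest comparison. Its 108 elements had a median of 0.04 in knockdown versus LacZ control and 0.07 in knockdown versus non-injected. The whole MaLR family had medians of -0.0045 and 0.13 in the same order, and its ORR1A subgroup -0.44 and -0.45. The MT2 LTRs of the ERVL family stood nearer to ORR1A: 5 of 6 were below 0 in the first comparison and 4 of 6 in the second, with medians of -0.30 and -0.30. MT2C_MM stood at -0.38 and -0.45 per the authors' deposited table (at adjusted p = 0.116 and 0.0352), MT2_MM at -0.31 and -0.27 (at adjusted p = 0.473 and 0.391). MERVL-INT stood at -0.32 and -0.36 per the authors' deposited table (at adjusted p = 0.498 and 0.265). In LacZ control versus non-injected the 6 MT2 LTRs had a median of 0.03. The families were not tested against each other.

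Gene transcripts of the oocyte and of the 2-cell stage are given beside these repeats, from short lists written after the repeat values were known. Of 32 maternal oocyte transcripts, in knockdown versus non-injected, DESeq2 called 16 higher and 0 lower among the 31 that have an adjusted p. Beside this, 15.2% of all genes were called in either direction. The median log2 fold change of the list was 0.72. Kpna7, an importin of the oocyte, rose by 1.15 ± 0.20 and Zp2, a protein of the egg coat, by 0.85 ± 0.19 in the authors' deposited table (at adjusted p = 9.40e-06 and 0.000840). Kpna7 overlaps Arpc1a exons on the other strand. The same list had a median of 0.24 with 0 calls in knockdown versus LacZ control (0.899% of all genes called in either direction). In LacZ control versus non-injected its median was 0.44 with 2 called higher (0.792% of all genes called in either direction). At an unadjusted p under 0.05, 6 of its members were higher and 0 lower in knockdown versus LacZ control by DESeq2. The share of all genes at an unadjusted p under 0.05 was not counted, so such counts have no background for this or the following gene lists. In knockdown versus non-injected 28 of the 32 maternal transcripts and 5 of the 6 MTA and MTB elements lay above 0, and the part of these transcripts in the MT result was not tested.

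The 28 measured genes of the 2-cell list are set beside ORR1A and MT2. Their median was -0.13 in knockdown versus LacZ control, with 0 called by DESeq2, 1 higher and 1 lower at an unadjusted p under 0.05. In knockdown versus non-injected it was 0.38 with 6 of 27 called higher and 0 lower, beside 15.2% of all genes called in either direction. In LacZ control versus non-injected it was 0.41 with 2 of 28 higher, beside 0.792% of all genes called in either direction. The 6 were Tcstv1, Tcstv3, Tdpoz3, Tdpoz4, Zscan4c and Zscan4f, all members of multicopy families whose reads can be split among near-identical copies.

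Genes that silence LTR elements were examined as the other side of the pathway. The list of 32 held H3K9 and DNA methyltransferases, the HP1 proteins, the corepressor Trim28, the HUSH complex and related factors. Between knockdown and LacZ control the 1 call among its 32 genes was Suv39h2, the target of the knockdown, beside 0.899% of all genes called. The list's median log2 fold change was -0.24, beside 0.015 over all genes, with 25 of 32 below 0. At an unadjusted p under 0.05, 9 of the 32 were lower, Suv39h2 among them, and 3 higher. Setdb1, the H3K9 methyltransferase that silences many LTR retrotransposons, and Trim28, which recruits it, stood at -0.39 and -0.37 per the authors' deposited table without a call (at adjusted p = 0.429 and 0.393). Both were named after their values had been seen, and the 3 higher genes are not named here. Between knockdown and non-injected 7 of 32, Suv39h2 among them, were called lower and 2 higher, beside 15.2% of all genes called in either direction. The HUSH subunit Fam208a fell by 1.15 ± 0.24 and the H3K9 methyltransferase Ehmt1 by 0.66 ± 0.21 in the authors' deposited table (at adjusted p = 0.000198 and 0.0191). The others lower in the authors' deposited table were Suv39h2, Morc2a (-0.88), Sumo2 (-0.85), the HUSH subunit Pphln1 (-0.84) and Rif1 (-0.67). Cbx1, an HP1 protein, rose by 1.05 ± 0.24, and Dnmt3l, a cofactor of DNA methyltransferases in germ cells, by 0.65 ± 0.18 in the authors' deposited table (at adjusted p = 0.000779 and 0.00700). Fam208a, Morc2a and Dnmt3l overlap exons on the other strand (Ccdc66, Tug1 and Aire) and Ehmt1 overlaps Gm37139 on its own strand, so their reads cannot be assigned with certainty. DESeq2 called 0 of the 32 in LacZ control versus non-injected, where 2 were higher and 2 lower at an unadjusted p under 0.05.

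Small RNA pathways cut retrotransposon transcripts in oocytes, and Dicer1 has in the mouse an oocyte form that starts in an MTC LTR within an intron. Dicer1 stood at -0.22 ± 0.22, -0.37 ± 0.23 and -0.15 ± 0.23 per the authors' deposited table for knockdown versus LacZ control, knockdown versus non-injected and LacZ control versus non-injected (at adjusted p = 0.686, 0.289 and 0.998). Its row sums all isoforms, so the oocyte form was not measured by itself. MTC stood at 0.01 ± 0.16, 0.20 ± 0.14 and 0.17 ± 0.18 in the same order per the authors' deposited table (at adjusted p = 0.983, 0.332 and 0.822). Of 19 genes of these pathways 0 were called by DESeq2 between knockdown and LacZ control, with 1 higher and 0 lower at an unadjusted p under 0.05. Against non-injected 2 of the 17 with an adjusted p were called, beside 15.2% of all genes, a share near that background. Piwil1 rose by 1.35 ± 0.29 and Piwil2 fell by 0.62 ± 0.23 in the authors' deposited table, both PIWI proteins that bind piRNAs (at adjusted p = 0.000366 and 0.0477). Between LacZ control and non-injected 0 of the 19 were called by DESeq2, with 1 higher and 0 lower at an unadjusted p under 0.05.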

How the data were processed

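Per the submitters' processing notes, the authors aligned reads to GRCm38.p5 with STAR 2.5.2b, used SAMtools, took counts from HTSeq 0.9.1 and ran the tests in DESeq2 1.18.1. RUVSeq factors and shrinkage are known only from the table names, and the assignment of reads to repeats was not given in the sources used here. As columns per the file headers, the deposited tables hold a mean normalized count (a signal after division by size factors), a log2 fold change with standard error, a Wald statistic (a score), a p-value and its adjusted form. They hold 0 columns of single libraries, so depth is unknown and no refit was possible. Shrinkage pulls fold changes of low counts towards 0.

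Members were rows with the family ERVL-MaLR, grouped by name. In all, 102, 101 and 101 had a p-value and 89, 89 and 93 an adjusted p, in knockdown versus LacZ control, knockdown versus non-injected and LacZ control versus non-injected. All without an adjusted p were internal parts of MLT elements. A call is a deposited adjusted p under 0.05; over which features the authors adjusted the repeat tables is unknown. Lists are described by counts and medians, with no test. Named elements are ORR1E-INT, called members, those with an unadjusted p under 0.05 in knockdown versus LacZ control, the 2 most abundant per name group, and pairs of an LTR and its internal part. Named genes are Suv39h2, Dicer1 and called members of the lists, to which ORR1C2-INT, Setdb1, Trim28 and other elements were added after their values had been seen. The members and lists were chosen with earlier results of these data known. Gene identifiers were matched to symbols for 49326 of 49585. Calculations used Python 3.11.15 with pandas 2.3.3 and NumPy 2.4.6, and the adjustment was tested on simulated data.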

Additional observations from a re-analysis of the deposited data

How the results depend on the processing

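Counts of calls depended on the features over which p-values were adjusted. In knockdown versus LacZ control the 1 MaLR call became 0 over the repeat table alone, over repeats and genes together, and over repeats with a mean count of at least 10, and stayed at 1 with a mean count of at least 100. In knockdown versus non-injected the 10 calls became 2, 7, 4 and 8 in the same order, and those were 2, 7, 4 and 8 of the original 10. In LacZ control versus non-injected the count was 0 throughout. Of the 44 recomputed adjusted p-values of called elements, 22 stayed under 0.05 and 22 did not; fewer or more features adjusted over is the only change between them. The deposited adjusted p differs from adjustment over the repeat table alone by up to 0.394, 0.361 and 0.628 in the 3 comparisons, and the features it covers are unknown.

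The medians of the family and of the MT, ORR1, MLT and ORR1A groups moved by less than the median standard error of their elements under 5 alternatives each (75 of 75), which were mean counts of at least 10 or 100, centring on all repeats, a weighted mean and LTRs alone. That limit is the error of a single element, not of a median, so sizeable shifts stay within it. The MT median in knockdown versus non-injected, 0.20 as given, was 0.12 after centring and 0.34 with LTRs alone. The ORR1A value ranged from -0.45 to -0.38 in knockdown versus LacZ control and from -0.52 to -0.41 in knockdown versus non-injected. The family median in knockdown versus LacZ control lies so near 0 that its sign changed with centring (0.012) and with LTRs alone (0.027), as did that of MT (0.011 and 0.028). In LacZ control versus non-injected the ORR1A median was -0.03 after centring. The alternatives for name groups and single elements were chosen after seeing the data. No paired analysis was possible because the tables carry no columns of single libraries. For the same reason no library could be left out in turn.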
